A study of Mus musculus with 16 samples.

Results

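Granzymes are serine proteases that killer lymphocytes store in granules, and perforin is the pore-forming protein that lets them reach the inside of a target cell. The 5 genes of this kind with a row in the lymph node gene table were examined: Gzma (granzyme A), Gzmb (granzyme B), Gzmk (granzyme K), Gzmm (granzyme M) and Prf1 (perforin), 5 of 9428 genes. They were taken by name. The cells were CD8+CD44+ T cells sorted from tumor-draining lymph nodes of 16-week-old C57BL/6 mice with melanoma-associated vitiligo, 45 days after surgical removal of the tumor. Vitiligo is the loss of skin pigment through killing of melanocytes, and CD44 is a usual but not an exclusive marker of T cells that have met antigen. Receptor sequences of T cells from matched vitiligo-affected skin of the same model were used for 1 purpose, to ask which lymph node clones were also present in skin.

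The comparison groups were all drawn from that 1 lymph node library. The 384 cells with at least 1 Itgae molecule (unique molecular identifier, UMI) were set against 2882 cells with none. Itgae encodes CD103, the integrin chain that binds E-cadherin and is a usual marker of tissue-resident memory T cells. The 28 cells whose T-cell receptor clone was found in skin were set against 2107 cells whose clone was not found there, and 1131 cells without a clone were kept apart. All cells carried the same strain, disease state, age and sort. How the model was made, how many mice were pooled and whether any cells came from the same animal were not given in the sources used here.

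The library held 3266 cells and 14556622 UMIs, with 461 to 12576 UMIs per cell and a median of 4423. Its 4 sequencing lanes were pooled in the deposited table, so there is 1 library and no replicate: no test of a difference between animals was possible and no p-value is given. Intervals are exact 95% intervals for counting error only, and they do not cover the clustering of UMIs in single cells. Levels are given as CPM, the UMIs of a gene scaled to the summed UMIs of the cells, with no correction for transcript length, so each gene is compared with itself across cells.

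All 6 listed CD8 T-cell markers were present in the gene table and together reached 5224 CPM in cells with a Gzma or Gzmb UMI, against 4845 CPM in the other cells. Of the NK-cell list only 3 of 6 genes had a row (Ncr1, Klrb1c and Klri2 had none), at 71.1 CPM in cells with a Gzma or Gzmb UMI and 95.9 CPM in the others. Of the gamma-delta T-cell list 2 of 8 had a row, Trgv2 and Cd163l1, at 109 CPM in cells with a Gzma or Gzmb UMI and 29.7 CPM in the others. Of the B-cell list 4 of 7 had a row, at 196 CPM in cells with a Gzma or Gzmb UMI and 230 CPM in the others, and none of the 5 mast-cell genes had one. Cd4 and Foxp3 had no row, and Cd40lg and Zbtb7b, the rest of the CD4 list, stood at 11.6 CPM in cells with a Gzma or Gzmb UMI and 10.7 CPM in the others. The myeloid gene Lyz2 stood at 5.17 CPM (4 UMIs) and 2.10 CPM, and the keratinocyte gene Krt10 at 9.05 CPM (7 UMIs) and 10.5 CPM, in the same order.

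Granzyme B cleaves after aspartate and activates caspases in the target, granzymes A and K cut after basic residues, and granzyme M cuts after methionine or leucine. In CD8 T cells these genes are known to be switched on unevenly, with granzyme B rising in recent effectors and granzyme K in some memory cells. Factors of the Runx and T-box families, among them Runx3, T-bet and Eomes, are known regulators of granzyme and perforin genes in mouse T cells.

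In the GENCODE M21 annotation of GRCm38 (mm10), Gzma lies at chr13:113093825-113100981 and Gzmk at chr13:113171608-113225908, both on the minus strand and 70626 bases apart. Gzmb lies at chr14:56258838-56262260 on the minus strand, beside Gzmc, Gzmf, Gzmn, Gzmg, Gzmd and Gzme, none of which had a row in the gene table. How reads shared among these 7 similar genes were assigned is not stated, so Gzmb counts may hold reads of its neighbours. Gzmm at chr10:79689020-79695261 and Prf1 at chr10:61297833-61304680 are both on the plus strand of another chromosome.

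The 250 bases upstream of the RefSeq start are shown for Gzma and Gzmb, which were often detected together, and for Gzmm. Gzmm was not found with them more often than the product of their shares. The sequences are from RefSeq (GRCm38.p6), on the strand of the gene, 5′ to 3′, with matches to the searched motifs in capitals. The windows are chr13:113100982-113101231 (minus strand) for Gzma, chr14:56262335-56262584 (minus strand) for Gzmb and chr10:79688770-79689019 (plus strand) for Gzmm.
Gzma: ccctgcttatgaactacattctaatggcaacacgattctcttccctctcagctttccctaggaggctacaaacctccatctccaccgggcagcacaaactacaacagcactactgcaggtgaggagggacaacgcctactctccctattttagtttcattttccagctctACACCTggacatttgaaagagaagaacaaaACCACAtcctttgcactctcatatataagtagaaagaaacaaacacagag
Gzmb: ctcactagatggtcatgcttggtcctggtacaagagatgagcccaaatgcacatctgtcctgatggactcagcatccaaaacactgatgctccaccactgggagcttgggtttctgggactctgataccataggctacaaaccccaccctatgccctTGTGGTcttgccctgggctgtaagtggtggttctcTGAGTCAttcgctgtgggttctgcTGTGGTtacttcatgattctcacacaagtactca
Gzmm: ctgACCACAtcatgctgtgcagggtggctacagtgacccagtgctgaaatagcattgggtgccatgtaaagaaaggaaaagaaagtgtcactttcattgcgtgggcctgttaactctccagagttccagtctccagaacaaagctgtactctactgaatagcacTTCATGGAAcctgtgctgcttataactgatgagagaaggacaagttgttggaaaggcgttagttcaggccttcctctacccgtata
Motifs were searched on both strands as exact letters. The Runx motif TGTGGT had 2 matches before Gzmb, 1 before Gzma and 1 before Gzmm, and 14.05% of 32851 mouse promoter windows of that length hold at least 1. The AP-1 motif TGANTCA had 1 match before Gzmb (6.75% of windows), the T-box motif AGGTGT had 1 before Gzma and 2 before Gzmk (11.8%), and the STAT motif TTCNNNGAA had 1 before Gzmm (7.02%). The window of Prf1 held 1 match each to Runx, T-box, CRE (TGACGT, 6.47% of windows) and E-box (CAGCTG, 4271 windows) and 2 to ETS (CAGGAA, 25.7%). The window searched for Gzmk was chr13:113180966-113181215, before a RefSeq start that lies inside the GENCODE span given above, and that for Prf1 was chr10:61297586-61297835. The Gzmb window begins at 56262335, while the GENCODE span of Gzmb ends at 56262260, so the bases between were not searched. A second RefSeq window of Gzmm, chr10:79693576-79693825 (plus strand), held no match to any searched motif. A match is a run of letters and not a shown binding site.

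Gzma UMIs were concentrated in few cells. Gzma was detected in 112 of 3266 cells, a share of 3.43% (2.83 to 4.11), with 454 UMIs in all and 31.2 CPM. Of these cells, 76 held a single UMI, while 14 cells with 11 or more UMIs held 62.1% of all Gzma UMIs, and the highest cell held 61. Gzmb was similarly uneven: it was detected in 83 cells (2.54%, 2.03 to 3.14), with 269 UMIs and 18.5 CPM, and its 6 cells with 11 or more UMIs held 37.2% of them. The highest cell of Gzmb held 36 UMIs. Gzmk was detected in 83 cells as well, with 128 UMIs (8.79 CPM) and at most 10 UMIs in a cell.

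Gzmm and Prf1 were spread over many cells at low numbers. Gzmm was detected in 810 cells (24.8%, 23.3 to 26.3), with 1579 UMIs (108 CPM) and no more than 11 UMIs in any cell. Prf1 was detected in 795 cells (24.3%, 22.9 to 25.9), with 953 UMIs (65.5 CPM) and a maximum of 4. Cells with a single UMI held 69.0% of all Prf1 UMIs and 28.1% of Gzmm UMIs, against 16.7% for Gzma and 15.6% for Gzmb.

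**Figure D1:**
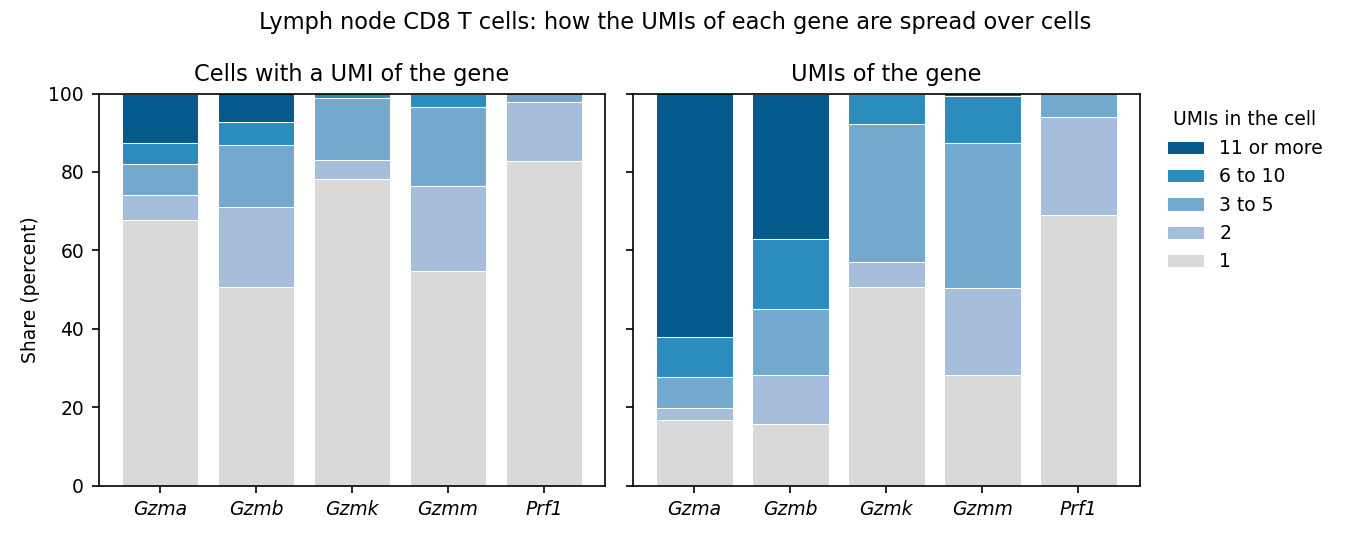
The stacked bars give, for each gene, the share in percent of its detected cells (left) and of its UMIs (right) that fall in cells with 1, 2, 3 to 5, 6 to 10, and 11 or more UMIs of that gene. Cells with 11 or more UMIs hold 62.1% of Gzma UMIs, 37.2% of Gzmb UMIs and none of the Prf1 UMIs.

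Free RNA in droplet libraries gives stray UMIs, and no sorted cell here is of a type that should lack these genes. The 589 cells with no UMI of Ccl5, a chemokine gene of memory and effector CD8 T cells, served as a low comparison, which was chosen after seeing the data. The median depth was 4570 UMIs per cell in the 2677 cells with a Ccl5 UMI and 3546 in the cells without. Gzma was detected in 3.51% (2.85 to 4.28) of Ccl5-detected cells and in 3.06% (1.82 to 4.79) of Ccl5-undetected cells, where 17 of its 18 cells had a single UMI. A share of cells with a Gzma UMI at or below 3.06% at full depth is not told apart from this low comparison. That value is a point estimate with a wide interval, from cells that may express the gene, and the 3.51% overlaps it too. After thinning to 1500 UMIs the shares were 1.75% (1.28 to 2.34) in Ccl5-detected cells and 0.384% (0.0465 to 1.38) in Ccl5-undetected cells. Gzmb was in 2.99% (2.38 to 3.71) of Ccl5-detected cells and 0.509% (0.105 to 1.48) of Ccl5-undetected cells. Gzmk was in 2.80% (2.21 to 3.50) of Ccl5-detected cells and 1.36% (0.588 to 2.66) of Ccl5-undetected cells. For Gzmm the shares were 28.7% in Ccl5-detected cells and 7.30% in Ccl5-undetected cells, and for Prf1 they were 26.1% and 16.1% in the same order.

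Shares also moved with depth. After each cell with at least 1500 UMIs was thinned to 1500, the shares were 1.52% for Gzma, 1.36% for Gzmb, 1.62% for Gzmk, 12.04% for Gzmm and 9.51% for Prf1, over 3090 cells. Cells with a Gzmk UMI were shallow, with a median of 2784 UMIs, and those with a Gzmm UMI were deep, with a median of 5019.5. Gzmk reached 32.0 CPM in the 1088 cells with the fewest UMIs, 1.46 CPM in the 1089 cells of middle depth and 5.07 CPM in the 1089 deepest cells.

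Most cells with several Gzma UMIs also held Gzmb. A Gzmb UMI was found in 1.81% of 3154 cells without Gzma, in 6.58% (2.17 to 14.7) of the 76 cells with 1 Gzma UMI and in 58.3% (40.8 to 74.5) of the 36 cells with 2 or more. Itgae followed the same order, in 10.9%, 17.1% and 72.2% of those cells. The median depth of the 3 sets was 4413, 4666 and 4394.5 UMIs per cell. Ly6c2, a surface antigen of circulating memory T cells, was detected in 87.0%, 86.8% and 58.3% of them.

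In all, 1788 cells (54.7%) held no UMI of any of the 5 genes, 1117 held 1 of the genes, 322 held 2, 35 held 3, 3 held 4 and a single cell held all 5. Gzma and Gzmb were detected together in 26 cells, 9.13 times the 2.85 cells that the product of their shares gives. Gzmb and Gzmk were together in 14 cells (6.64 times) and Gzma and Gzmk in 12 cells (4.22 times). Gzmb was found in 23.2% (15.8 to 32.1) of cells with Gzma and in 1.81% of cells without it.

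Gzmm was not found with the other 3 granzymes more often than the product of shares. It shared 24 cells with Gzma (0.864 times the product of shares), 17 with Gzmb (0.826 times) and 13 with Gzmk (0.632 times). Prf1 was found with each granzyme slightly more often than the product of shares, from 1.30 times with Gzmm (256 cells) to 1.44 times with Gzmb (29 cells). When the expected number was summed over 10 depth groups of cells, the ratio was 7.94 for Gzma with Gzmb, 4.60 for Gzmb with Gzmk and 4.06 for Gzma with Gzmk, and it was 0.819 to 0.949 for the 3 pairs of these genes with Gzmm.

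Thinning to 1500 UMIs left 17 cells with Gzma and Gzmb, 26.6 times the product of the thinned shares, and 0 cells with Gzmb and Gzmm against 5.06 expected from the product. Gzma with Prf1 then stood at 2.68 times (12 cells) and Gzmk with Prf1 at 2.31 times (11 cells). Barcodes with 2 or more TRB sequences can be pairs of cells, and without these 315 barcodes Gzma and Gzmb were together in 19 cells, 8.50 times the product. The cell with 61 Gzma UMIs and the cell with 36 Gzmb UMIs each carried 2 or more TRB sequences.

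**Figure D2:**
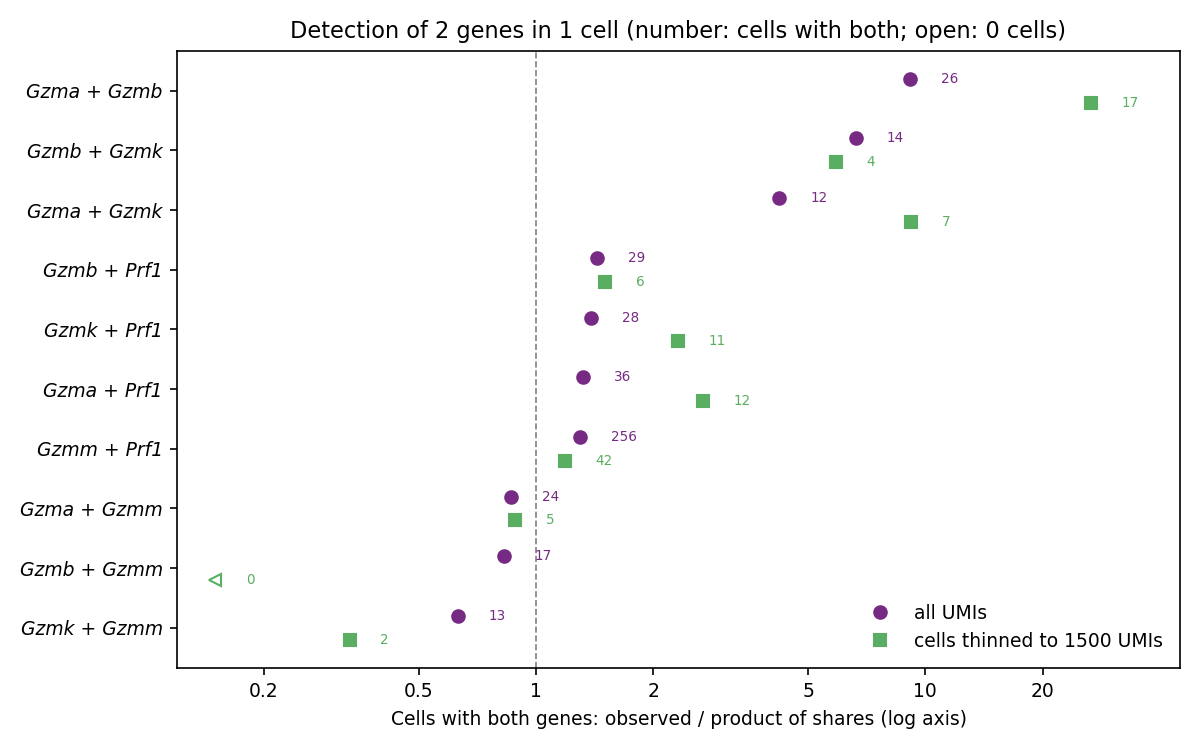
Each row is a pair of genes, and the log axis gives the number of lymph node cells with UMIs of both divided by the number from the product of their shares, with circles for all UMIs and squares after thinning each cell to 1500 UMIs. The pairs among Gzma, Gzmb and Gzmk lie at 4.22 to 9.13 with all UMIs, and the pairs of these genes with Gzmm lie below 1.

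Clusters made without the 5 genes, Itgae and receptor segments gave 7 groups, numbered by size and called here by their leading genes. Cluster 7 was led by S100a4, Lgals3, Id2, Capg and Itga1 and held 192 cells, 5.88% of all. It held 67.8% of Gzma UMIs, 63.9% of Gzmb UMIs and 34.4% of Gzmk UMIs, and 1.90% of Gzmm UMIs. Its cells were shallow, with a median of 2673 UMIs.

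Gzma stood at 475 CPM (423 to 531) in cluster 7, 40.7 CPM (30.2 to 53.6) in cluster 6, which was led by the interferon-induced genes Isg15 and Ifit1, and 17.0 CPM (12.03 to 23.3) in cluster 4, led by 2010016I18Rik and Tnfaip3. The other 4 clusters lay at 5.03 to 6.22 CPM with overlapping intervals. The shares of cells with a Gzma UMI in clusters 1 to 5 were 1.51% to 2.75%, all below the 3.06% of the Ccl5-undetected cells, and 2 cells with 16 and 15 UMIs held most of the 38 Gzma UMIs of cluster 4.

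Gzmb had the same order at the top, 265 CPM (227 to 308) in cluster 7 and 52.8 CPM (40.8 to 67.4) in cluster 6, where 36 of 65 UMIs were in 1 cell and the level without that cell was 23.8 CPM. Clusters 5 and 4 followed at 6.75 and 5.82 CPM with overlapping intervals, and clusters 1, 3 and 2 at 1.69, 0.718 and 0.622 CPM, again overlapping, and the intervals of clusters 4 and 1 also overlap. Gzmk had a second place of its own. It reached 67.8 CPM (49.3 to 91.1) in cluster 7 and 31.1 CPM (22.7 to 41.4) in cluster 5, led by Izumo1r, Ctla4 and Nrn1, genes known from anergic and regulatory T cells. Cluster 5 held 35.9% of Gzmk UMIs in 30 of its 397 cells, and the other 5 clusters lay between 0.718 and 5.69 CPM.

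Gzmm was highest where Gzma and Gzmb were not. It stood at 176 CPM (162 to 191) in cluster 2, led by the Ly49-family and related receptor genes Klra7, Klre1 and Klra6, where 41.6% of 618 cells had a UMI. Clusters 1, 4 and 6 followed at 120, 114 and 95.9 CPM with each interval overlapping the next, then cluster 3 at 77.9 CPM (67.9 to 89.0), whose interval overlaps that of cluster 6. Clusters 7 and 5 were lowest at 46.2 CPM (31.2 to 66.0) and 25.7 CPM (18.2 to 35.2), with intervals that overlap. Prf1 varied least, from 102 CPM (78.7 to 129) in cluster 7 and 85.9 CPM (74.2 to 99.0) in cluster 4 to 39.8 CPM (30.3 to 51.4) in cluster 5, and its other 4 clusters lay at 61.04 to 64.8 CPM. The intervals of Prf1 in clusters 7 and 4 overlap, as do those of clusters 4 and 1.

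**Figure D3:**
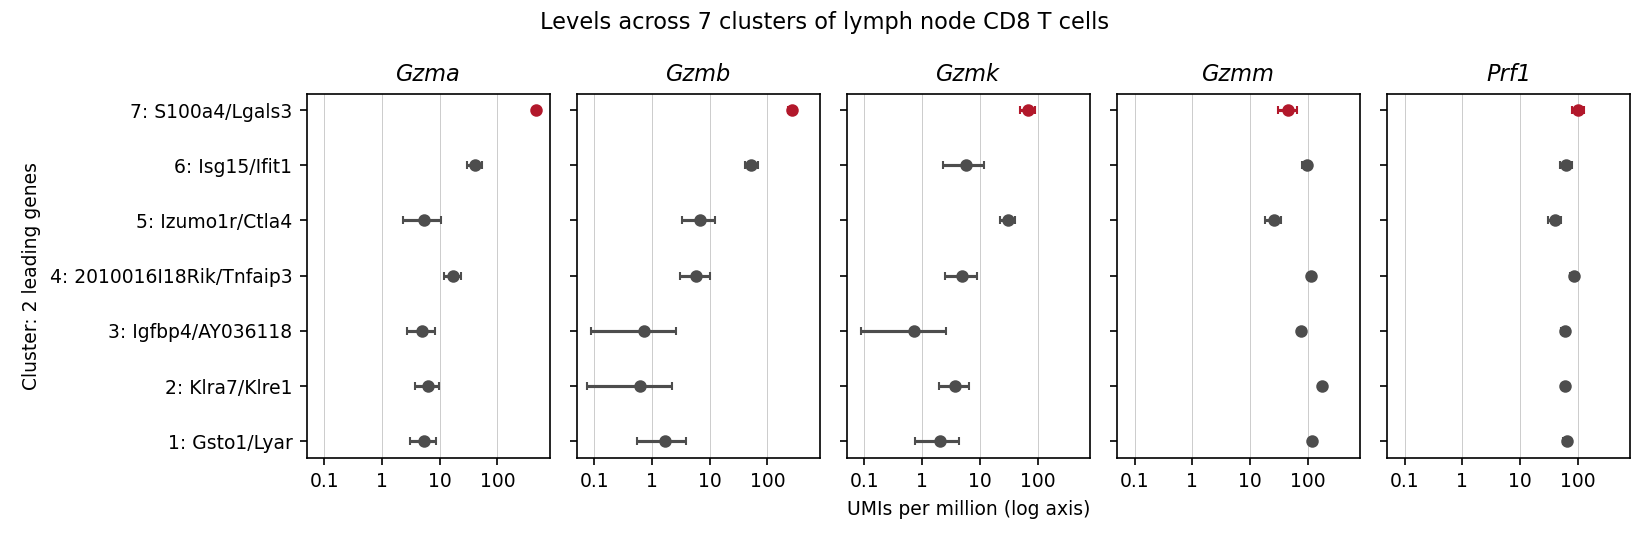
Points give the level of each gene in CPM (log axis) in each of 7 clusters with exact Poisson intervals, cluster 7 in red, and rows name the cluster and its 2 leading genes. Gzma and Gzmb are highest in cluster 7, Gzmm is highest in cluster 2 at 176, and Prf1 lies between 39.8 and 102 in all 7 clusters.

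Granzymes A, B and K were higher, granzyme M was lower by less than the 2-fold rule and perforin was not called, in cells with Itgae against cells without. A gene was called when its CPM differed at least 2-fold with an interval of the ratio beyond 1. Gzma stood at 195 CPM in Itgae-detected cells (312 UMIs, 39 of 384 cells) and 10.96 CPM in Itgae-undetected cells (142 UMIs, 73 of 2882 cells), a ratio of 17.8 (14.6 to 21.9). Gzmb stood at 112 CPM in Itgae-detected cells (43 cells) and 6.95 CPM in Itgae-undetected cells (40 cells), a ratio of 16.1 (12.5 to 21.0). Gzmk stood at 23.8 CPM in Itgae-detected cells and 6.95 CPM in Itgae-undetected cells, a ratio of 3.42 (2.28 to 5.05). So 3 of the 5 genes were called higher and 0 lower, where 3.97% of 9037 genes were called higher and 0.398% lower.

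Gzmm stood at 71.3 CPM in Itgae-detected cells and 113 CPM in Itgae-undetected cells, a ratio of 0.631 (0.517 to 0.764). Its share of cells was 14.3% (10.98 to 18.2) with Itgae and 26.2% (24.6 to 27.8) without. Prf1 stood at 61.3 CPM in Itgae-detected cells and 66.0 CPM in Itgae-undetected cells, a ratio of 0.929 (0.746 to 1.15). The 2.53% of Itgae-undetected cells with a Gzma UMI is below the 3.06% of the Ccl5-undetected cells, with medians of 4471 UMIs per cell in the Itgae-undetected cells and 3546 in the Ccl5-undetected cells. After thinning it was 0.874% against 0.384%, with overlapping intervals, so no order is read from these shares.

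The 2 sides differed in depth, with medians of 3682.5 UMIs per cell with Itgae and 4471 without. After thinning to 1500 UMIs, Gzma was in 6.71% (4.30 to 9.89) of Itgae-detected cells and 0.874% (0.561 to 1.30) of Itgae-undetected cells, and Gzmb in 8.16% (5.49 to 11.6) and 0.510% (0.279 to 0.854) in the same order. The thinned levels of Gzmk, 23.3 CPM with Itgae and 12.6 CPM without, no longer passed the 2-fold rule. When each cell was weighted equally Gzmm was more than 2-fold lower, at 48.5 CPM with Itgae and 106 CPM without, with no interval computed. Scaling by the median of ratios moved all genes by 0.21 on the log2 scale in this split and changed the calls over all genes to 213 higher and 99 lower, against 359 higher and 36 lower, and left the calls of the 5 genes as they were.

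The split by Itgae was repeated within clusters, which differ in their share of Itgae-detected cells. In cluster 7, Gzma stood at 624 CPM (551 to 704) in 120 Itgae-detected cells, where 61 of 265 UMIs were in 1 cell. It stood at 192 CPM (139 to 258) in 72 Itgae-undetected cells, where all 43 UMIs were in 2 cells, 22 of them in 1. Without the highest cell of each side the levels were 489 and 95.0 CPM in the same order. Gzmb stood at 313 CPM (262 to 371) in the Itgae-detected cells of cluster 7 and 174 CPM (124 to 238) in the Itgae-undetected ones. The 133 Itgae-detected cells of cluster 5 held 4 Gzma UMIs and 6 Gzmb UMIs, or 7.55 and 11.3 CPM. Among the 264 Itgae-undetected cells of cluster 5 these genes stood at 4.21 CPM each, and Gzmk stood at 43.1 CPM (30.9 to 58.5) there, while it stood at 9.44 CPM (3.06 to 22.0) in the Itgae-detected cells. In cluster 4, Gzma stood at 121 CPM in 50 Itgae-detected cells, or 63.6 CPM without the highest cell, and 2.55 CPM in 399 Itgae-undetected cells. In cluster 6 all 36 Gzmb UMIs of the 11 Itgae-detected cells were in 1 cell.

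Marker lists of other cell types and states differed between the sides of the Itgae split. The resident-memory-like list without Itgae stood at 931 CPM in Itgae-detected cells and 572 CPM in Itgae-undetected cells, and the gamma-delta list at 72.6 and 29.2 CPM in the same order. The CD4 list (Cd40lg and Zbtb7b) stood at 41.3 CPM with Itgae and 6.95 CPM without, the NK list at 58.8 CPM with and 99.0 CPM without, and the B-cell list at 295 CPM with and 220 CPM without. The CD8 T list stood at 6052 CPM with Itgae and 4719 CPM without, Lyz2 at 5.01 CPM (8 UMIs) with and 1.93 CPM without, and Krt10 at 10.01 CPM with and 10.5 CPM without. The part of these markers in the granzyme results was not tested.

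Trgv2, a variable segment of the T-cell receptor gamma locus, moved with these genes. In the 80 cells with a Trgv2 UMI, Gzma stood at 418 CPM and Gzmb at 161 CPM, against 21.0 and 14.7 CPM in the 3186 cells without. A Trgv2 UMI was in 38.9% of cells with 2 or more Gzma UMIs. Without the Trgv2 cells the Itgae split gave 114 CPM of Gzma with Itgae and 10.9 CPM without, and 85.8 CPM of Gzmb with Itgae and 7.03 CPM without, and Gzma, Gzmb and Gzmk were again called higher. The part of Trgv2-positive cells in the results was not tested beyond these values.

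In lymph node cells whose clone was found in skin, granzymes A, B and K were higher, granzyme M was not detected, and perforin was not called. A clone was defined by identical nucleotide CDR3 sequences of the TRB and TRA chains, and 26 clones in 28 cells of the gene table were also in the skin receptor table. None of these 28 cells carried a barcode that was in the skin table. A clone not found in skin may be present there unsampled, since the skin table gave 701 clones. The 28 cells were shallow, with a median of 2281 UMIs against 4556 in the 2107 cells with a clone not found, and 25 of them were in cluster 7 and 3 in cluster 5. Cluster 7 also held 70 cells with a clone not found.

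Gzmb had the larger contrast. It was detected in 14 of 28 skin-found cells (interval of the share 30.6% to 69.4%) and 32 of 2107 cells with a clone not found (1.52%, 1.04 to 2.14). Its level was 1022 CPM (69 UMIs) in skin-found cells and 8.13 CPM (78 UMIs) in the not-found cells, a ratio of 126 (89.6 to 176). Gzma was detected in 7 of 28 skin-found cells (25.0%, 10.7 to 44.9) and 2.99% (2.31 to 3.81) of the not-found cells. The share in not-found cells is below the 3.06% of the Ccl5-undetected cells, so it is not told apart from that low comparison. The level of Gzma was 815 CPM (55 UMIs) in skin-found cells and 13.8 CPM (132 UMIs) in not-found cells, a ratio of 59.2 (42.4 to 81.7). Gzmk had 5 UMIs in 3 skin-found cells, or 74.1 CPM, against 6.36 CPM in not-found cells, a ratio of 11.7 (3.65 to 28.7).

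Gzmm had no UMI in the 67509 UMIs of the 28 skin-found cells, which by a limit of 3 counts allows a share of up to 10.7% of such cells with a UMI (12.3% by the exact interval). The limit is on cells with a UMI at this depth and not on cells expressing the gene. Gzmm was in 26.3% (24.5 to 28.3) of not-found cells, which had a median of 4556 UMIs, at 109 CPM. In the 1088 lymph node cells with the fewest UMIs, with a median of 2563, it was in 11.1% at 64.5 CPM. In cluster 7, which held 25 of the skin-found cells, its share was 7.81% (4.44 to 12.6). These shares lie under the exact limit of 12.3%. Set at a floor of 3 UMIs over the group, Gzmm was at least 2.45-fold lower in skin-found cells, while the exact interval of the ratio reaches up to 0.503. Prf1 had 7 single UMIs in the skin-found cells, 104 CPM, against 64.4 CPM in the not-found cells, a ratio of 1.61 (0.645 to 3.34), and its share was 25.0% against 24.7%. Thus 3 of the 5 genes were called higher and 1 lower, where 8.61% of 8398 genes were called higher and 0.917% lower.

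The call of Gzmm was the weakest of these. It was lost, with still 0 UMIs in the skin-found cells, after thinning (22 cells against 104 CPM), among 20 cells without Trgv2, and among the cells with or without Itgae alone, and it was lost at 60.1 CPM against 112 CPM when contigs needed 3 or more UMIs (12 cells). With TRB sequences alone 49 cells were found in skin and Gzmm was called lower, at 15.02 CPM against 107 CPM in the not-found cells. The calls of Gzma and Gzmb held under all 17 alternatives tried, by the 2-fold ratio alone where cells or clones were weighted equally. Several of the 17 could not change a call. The prior does not enter the call, and no cell with a clone had 2 or more TRB sequences. Clones by amino acid CDR3 gave the same levels, and no skin-found cell had a barcode in the skin table. The log2 ratios were 3.03 to 7.11 for Gzma and 4.88 to 7.30 for Gzmb. The 7.11 was among Itgae-undetected cells, where 1 skin-found cell held all 22 Gzma UMIs. Scaling by the median of ratios shifted all genes by 0.55 on the log2 scale and gave 279 higher and 290 lower calls over all genes, against 723 higher and 77 lower, and it left the calls of the 5 genes as they were.

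**Figure D4:**
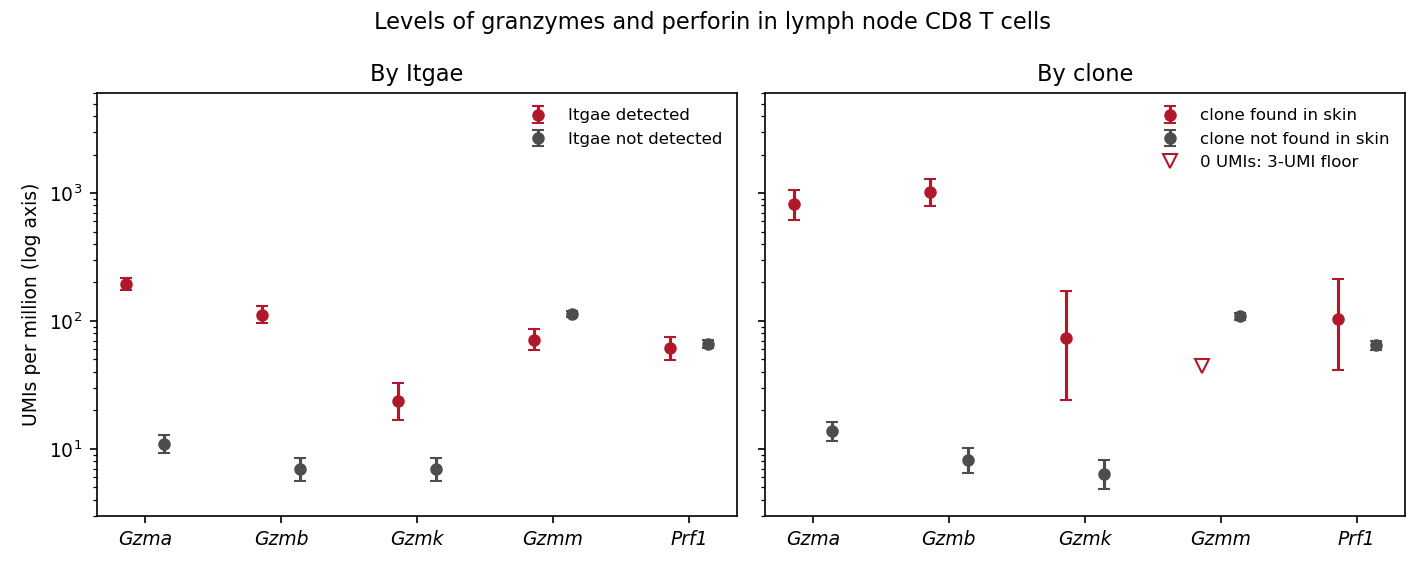
Points give the level of each gene in CPM (log axis) with exact Poisson intervals, in red for Itgae-detected cells (left panel) or cells with a clone found in skin (right panel) and in grey for the other side. Gzma and Gzmb stand above the grey points in both panels, and the open triangle marks Gzmm with 0 UMIs in the skin-found cells, drawn at its 3-UMI floor of 44.4.

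Gzma and Gzmb were not uniform among the skin-found cells. Either gene was detected in 15 of the 28 cells and both in 6, and 10 cells held no UMI of any of the 5 genes. The 7 cells with Gzma held 22, 16, 6, 5, 3, 2 and 1 UMIs. Gzmb UMIs numbered 16, 13, 11, 10 and 5 in its 5 highest cells, 1 to 3 in the 9 others. The values fall into a few strong cells and many at 0.

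The number of skin barcodes was set beside the granzyme values. Clone 1, with 88 skin barcodes, had 1 cell in the gene table with 1481 UMIs and none of the 5 genes. The median number of skin barcodes per clone was 4 for cells with Gzmb (range 1 to 10) and 4 for cells without it (range 1 to 88), and it was also 4 for cells with Gzma (2 to 17) and for cells without (1 to 88). Cells with Gzmb were deeper, with a median of 2684.5 UMIs against 1840.5 for skin-found cells without it. Itgae was detected in 10 of the 14 cells with Gzmb and 8 of the 14 without.

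The 3 skin-found clones with the most Gzma and Gzmb UMIs are given by the nucleotide sequence of their CDR3, the part of the receptor that contacts the peptide, in lower case, 5′ to 3′, as in the authors' contig tables. TRA lies on mouse chromosome 14 and TRB on chromosome 6. Clone 15 had 16 Gzma and 13 Gzmb UMIs in its lymph node cell and 3 skin barcodes. Clone 6 had 22 Gzma, 1 Gzmb and 3 Gzmk UMIs and 8 skin barcodes. Clone 3 had 16 Gzmb UMIs, no Gzma UMI and 10 skin barcodes.
Clone 15, TRA (TRAV16D-DV11, TRAJ27): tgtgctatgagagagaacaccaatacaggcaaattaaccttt
Clone 15, TRB (TRBV13-1, TRBJ2-1): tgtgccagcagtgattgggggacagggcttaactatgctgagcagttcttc
Clone 6, TRA (TRAV7-5, TRAJ34): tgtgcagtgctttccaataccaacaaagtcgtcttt
Clone 6, TRB (TRBV19, TRBJ2-3): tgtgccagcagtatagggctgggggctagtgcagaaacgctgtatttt
Clone 3, TRA (TRAV6-6, TRAJ58): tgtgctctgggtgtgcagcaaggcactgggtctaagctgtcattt
Clone 3, TRB (TRBV19, TRBJ1-1): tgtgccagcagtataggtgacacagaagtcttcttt
The 3 clones share no CDR3, and clones 6 and 3 both use TRBV19.

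**Figure D5:**
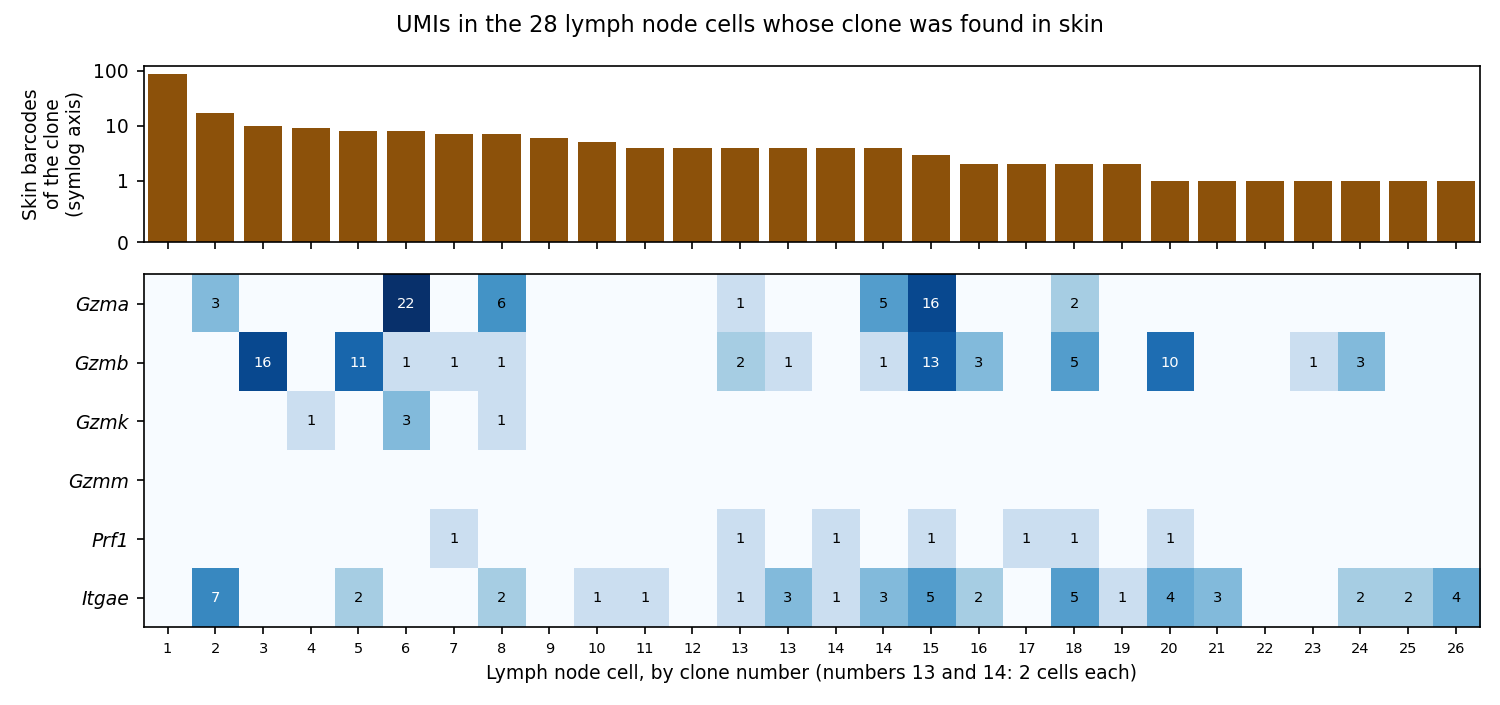
Each column is 1 of the 28 lymph node cells whose clone was found in skin, with the number of skin barcodes of its clone above (symlog axis) and its UMIs of each gene below (printed numbers, empty for 0). Gzma reaches 22 and Gzmb 16 in single cells, Gzmm is empty throughout, and the cell of the clone with 88 skin barcodes has none of the 5 genes.

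Presence in skin and Itgae detection overlapped without being the same. Itgae was in 18 of 28 skin-found cells (64.3%) and 196 of 2107 not-found cells (9.30%). Among Itgae-detected cells, Gzmb stood at 1046 CPM in 18 skin-found cells and 34.6 CPM in 196 not-found cells, a ratio of 30.2 (18.7 to 49.5), and Gzma at 690 CPM in skin-found cells and 83.6 CPM in not-found cells, a ratio of 8.25 (5.28 to 12.7). Among Itgae-undetected cells, Gzmb stood at 965 CPM in 10 skin-found cells (19 UMIs, 16 in 1 cell) and 5.59 CPM in 1911 not-found cells. All 22 Gzma UMIs of the 10 Itgae-undetected skin-found cells were in 1 cell.

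Among cells with a clone not found in skin, Gzma and Gzmb levels were still higher with Itgae. Gzma stood at 83.6 CPM in 196 Itgae-detected cells and 7.08 CPM in 1911 Itgae-undetected cells, a ratio of 11.8 (8.27 to 16.9), and Gzmb at 34.6 CPM with Itgae and 5.59 CPM without, a ratio of 6.19 (3.77 to 9.997). The 70 Gzma UMIs of the Itgae-detected cells were in 11 cells, with 25 in 1 cell, and 10 of their 29 Gzmb UMIs were in 1 cell. The share with a Gzma UMI was 5.61% (2.83 to 9.82) with Itgae and 2.72% (2.04 to 3.55) without, with overlapping intervals before and after thinning. For Gzmb it was 5.10% (2.47 to 9.18) and 1.15% (0.723 to 1.74), and the intervals did not overlap before or after thinning. Among skin-found cells the ratios of Itgae-detected to Itgae-undetected cells were 0.618 (0.349 to 1.11) for Gzma and 1.08 (0.628 to 1.95) for Gzmb. On the Itgae-undetected side 1 cell held all 22 Gzma UMIs and 1 cell held 16 of 19 Gzmb UMIs, so no order is read from these ratios. By cells, Gzma was in 6 of 18 skin-found cells with Itgae and 1 of 10 without, and Gzmb in 10 of 18 and 4 of 10.

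Markers of other types and states moved with the clone split. The gamma-delta list stood at 281 CPM in skin-found cells (19 UMIs) and 30.7 CPM in not-found cells, and 20 of the 28 skin-found cells carried no Trgv2 UMI. Among those 20 cells Gzma stood at 938 CPM and Gzmb at 1144 CPM, against 7.43 and 6.26 CPM in not-found cells without Trgv2. The resident-memory-like list, with 6 of 7 genes in the table, stood at 3170 CPM in skin-found cells and 613 CPM in not-found cells. The NK list stood at 29.6 CPM in skin-found cells, with Tyrobp at 0, and 94.7 CPM in not-found cells. The CD8 T list stood at 7540 CPM in skin-found cells and 4845 CPM in not-found cells, and the B-cell list at 356 CPM (24 UMIs, Ighd at 0) and 223 CPM in the same order. The CD4 list stood at 104 CPM in skin-found cells, 7 UMIs with Zbtb7b at 0, and 7.71 CPM in not-found cells. Lyz2 had 2 UMIs in skin-found cells, 29.6 CPM against 1.98 CPM in not-found cells, and Krt10 had 0 UMIs against 9.17 CPM. The part of these markers in the granzyme results was not tested.

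Gene likeness over cells was described by Pearson's r of log-scaled values over all 3266 cells and 9217 genes, which share 1 library and are sparse, so it is a description and carries no p. Gzmb was the gene most like Gzma and Gzma the gene most like Gzmb (r = 0.38). Next for Gzma were Lgals3 (galectin 3, r = 0.28), Itga1 (the collagen-binding integrin CD49a, r = 0.27), Klrk1 (the activating receptor NKG2D, r = 0.24), Gzmk (r = 0.24) and Itgae (r = 0.23). Itga1 stood at 46.1 CPM in cells with Gzma and 6.21 CPM in cells without, and Klrk1 at 131 CPM with Gzma and 33.5 CPM without. The lowest for Gzma were Eef1a1 (r = -0.12), Tpt1 (r = -0.10) and Eef1b2 (r = -0.10), genes of translation and growth.

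For Gzmb the next were S100a4, a calcium-binding protein of motile cells (r = 0.35), Lgals3 (r = 0.35), Gm36723 (r = 0.33), Ly6a, which encodes Sca-1 (r = 0.29), and Capg, an actin-capping protein (r = 0.28). S100a4 was detected in 56.6% of cells with Gzmb and 8.99% of cells without, and Gm36723 in 22.9% and 0.597% in the same order. Of the 20 genes most like Gzma, 17 were among the 20 most like Gzmb. The lowest for Gzmb were Eef1b2 (r = -0.13), Ly6c2 (r = -0.12) and Tpt1 (r = -0.12). Ly6c2 was in 63.9% of cells with Gzmb and 87.3% of cells without, but its summed level was alike, at 2095 and 2096 CPM in the same order.

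For Gzmk the highest after Gzma were Id2, an inhibitor of E-protein transcription factors (r = 0.22), Casp1, an inflammatory caspase (r = 0.17), Gzmb (r = 0.17), Itga1 (r = 0.16) and Klrk1 (r = 0.16). Id2 was in 68.7% of cells with Gzmk and 22.5% of cells without. Its lowest were Ly6c2 (r = -0.20), Nme2 (r = -0.16) and Tpt1 (r = -0.14). Of the 20 genes most like Gzmk, 10 were among the 20 most like Gzmb.

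For Gzmm the list was a different one. It held Ccl5 (r = 0.21), Ly6c2 (r = 0.21), Itm2a (r = 0.17), Il2rb, the beta chain of the IL-2 and IL-15 receptors (r = 0.16), Ctla2a (r = 0.16) and Fcgrt (r = 0.15). Itm2a stood at 161 CPM in cells with Gzmm and 109 CPM in cells without. The lowest for Gzmm were Dapl1 (r = -0.12), Capg (r = -0.12) and Itgae (r = -0.11), with Itgae at 21.1 CPM in cells with Gzmm and 57.0 CPM in cells without. None of its 20 highest was among the 20 of Gzma or of Gzmb. For Prf1 no gene passed r = 0.09, and its highest, Nkg7 (r = 0.09), is too weak in these sparse counts to be read as a partner. The others of its highest 6 were Ly6c2, Podnl1, Gzmb, Zfp712 and Hexim1, and its lowest were Pex10, Ubb and Rflnb. Of the 30 highest partners over the 5 genes, 13 were again among the highest 6 when r was taken on detection after thinning.

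Genes of granule loading and release were compared in both splits. Of 24 listed, 21 had a row and 20 had enough UMIs. In the Itgae split 0 of the 20 were called, close to the 3.97% called higher and 0.398% called lower over all genes, with a median log2 ratio of 0.11 against 0.20 over all genes tested. Lamp2 (21.3 CPM with Itgae, 12.04 CPM without) and Unc13d, a granule-priming factor (50.1 CPM with Itgae, 31.0 CPM without), were the highest, and Crtam (29.4 CPM with, 41.4 CPM without) and Dpp7 (5.01 CPM with, 6.33 CPM without) the lowest. In the clone split 2 of 20 were called higher and 0 lower, a share near the 8.61% higher and 0.917% lower over all genes: Srgn, the proteoglycan that packs granules (844 CPM in skin-found cells, 338 CPM in not-found cells), and Nkg7, a granule membrane protein (2592 CPM in skin-found cells, 1164 CPM in not-found cells). With median-of-ratios scaling both fell under 2-fold, at ratios of 1.71 for Srgn and 1.52 for Nkg7, and 0 of 20 were called higher and 1, Lamp1, lower. Rab27a, a factor of granule docking, was the highest by rank, at 74.1 CPM in skin-found cells and 27.4 CPM in not-found cells with a ratio of 2.70 (0.870 to 6.39), and Vamp7 and Dpp7 had 0 UMIs in skin-found cells and 15.8 and 6.36 CPM in not-found cells. The median log2 ratio was 0.32 (0.47 with the 2 genes at 0 UMIs set to their bound) against 0.27 over all genes.

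Other killing genes included calls in both splits. In the Itgae split 4 of 9 were higher and none lower, where 3.97% of all genes were called higher and 0.398% lower: Klrk1 (110 CPM with Itgae, 28.1 CPM without), Ifng (20.6 CPM with, 7.72 CPM without), Tnfsf10, which encodes TRAIL (46.3 CPM with, 18.4 CPM without), and Lta (23.2 CPM with, 9.34 CPM without). The median log2 ratio was 0.76. Klrd1 and Hcst were the lowest of that list by rank, at 245 and 768 CPM with Itgae against 232 and 831 CPM without. In the clone split 4 of 8 were higher and none lower, where 8.61% of all genes were called higher and 0.917% lower: Klrk1 (548 CPM in skin-found cells, 29.2 CPM in not-found cells), Ifng (104 CPM from 7 UMIs, against 7.50 CPM), Tnfsf10 (178 CPM against 20.3 CPM) and Klrd1 (489 CPM against 232 CPM), with a median of 1.04. With median-of-ratios scaling 3 of 8 were called, and Klrd1 fell to a ratio of 1.44. Lta (14.8 CPM from 1 UMI in skin-found cells, 9.17 CPM in not-found cells, ratio 1.62, 0.0404 to 9.24) and Hcst (1378 CPM in skin-found cells, 823 CPM in not-found cells) were the lowest by rank.

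Of the transcription regulators, 4 of 21 were higher and none lower with Itgae, where 3.97% of all genes were called higher and 0.398% lower, namely Id2, Rora, Bhlhe40 and Irf4, with a median log2 ratio of 0.16. Id2 stood at 356 CPM with Itgae and 73.3 CPM without, and Eomes, a T-box factor of memory cells, at 45.7 CPM with Itgae and 90.4 CPM without, a ratio of 0.505 that missed the rule but passed it with median-of-ratios scaling. Rora stood at 30.04 CPM with Itgae and 4.17 CPM without, and Klf3 at 93.9 CPM with and 143 CPM without. In the clone split 4 of 18 were higher (Id2, Bhlhe40, Rora and Batf) and 5 were lower (Eomes, Id3, Tcf7, Lef1 and Klf3), where 8.61% of all genes were called higher and 0.917% lower. With median-of-ratios scaling the same 4 were higher and 7 were lower, these 5 with Stat4 and Klf2. Eomes and Id3 had 1 UMI each in the skin-found cells, with ratios of 0.172 (0.00435 to 0.961) and 0.0906 (0.00229 to 0.505), and Lef1 and Klf3 had 3 each, with ratios of 0.226 (0.0466 to 0.662) and 0.317 (0.0654 to 0.930). The median log2 ratio of the list was -0.47, and 0.25 with its 2 genes at 0 UMIs (Bach2 and Tox) set to their bound, so its sign rests on those genes. Id2 stood at 1822 CPM in skin-found cells and 78.8 CPM in not-found cells, and Bhlhe40 at 104 CPM (7 UMIs) and 4.48 CPM in the same order. Bach2 stood at 31.1 CPM and Tox at 29.0 CPM in not-found cells. Tcf7, which encodes the memory factor TCF-1, stood at 104 CPM (7 UMIs) in skin-found cells and 279 CPM in not-found cells. Tbx21, which encodes T-bet, was not called in either split, at 45.1 CPM with Itgae and 46.0 CPM without, and at 88.9 CPM (6 UMIs) in skin-found cells and 45.3 CPM in not-found cells. It was picked out after its values were seen.

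Among cytokine receptors and their feedback genes, Cish, a target and inhibitor of STAT5 signalling, was the 1 called of 11 in the Itgae split (3.97% of all genes called higher), at 38.8 CPM with Itgae and 5.09 CPM without, and the median log2 ratio was 0.25. Il18r1 stood at 145 CPM with Itgae and 82.8 CPM without, Il18rap at 39.4 CPM with and 38.4 CPM without, and Socs3 at 15.6 CPM with and 22.6 CPM without. In the clone split 3 of 11 were higher, where 8.61% of all genes were: Cish (148 CPM in skin-found cells, 5.94 CPM in not-found cells), Il15ra (59.3 CPM from 4 UMIs, against 9.28 CPM) and Il18r1 (400.0 CPM against 83.7 CPM), with a median of 0.83, or 0.90 with Socs3, at 0 UMIs against 23.9 CPM, set to its bound. Il21r stood at 163 CPM in skin-found cells and 148 CPM in not-found cells. The other granzymes on the list, Gzmc, Gzmd, Gzme, Gzmf, Gzmg and Gzmn, had no row, so 0 of 6 could be compared.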

How the data were processed

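The gene table deposited by the authors gives raw counts, the UMIs of each gene in each cell, with the 4 lanes of the lymph node library pooled. Per the submitters' processing notes Bowtie, RSEM and mm10 were used, with no roles or versions given. The table's lowest values show that each gene has a UMI in at least 14 cells and each cell fewer than 5% mitochondrial counts. The 2 deposited contig tables give UMI counts per receptor contig, per the file headers. Lymph node RNA and both receptor tables were used, and skin RNA was not analysed here.

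A clone was identical TRB and TRA CDR3 nucleotides, with exactly 1 TRB and 1 or 2 TRA, from productive, full-length, high-confidence contigs. The 2 contig tables shared 12 barcodes, none with the same clone in both tissues. UMIs were summed per side and given as CPM, with Clopper-Pearson intervals for shares, exact Poisson intervals for levels and exact conditional binomial intervals for ratios. Genes with at least 50 UMIs over both sides were compared, calls needed a 2-fold ratio with an interval beyond 1, and a side with 0 UMIs was set to a floor of 3. Settings with equal cell or clone weights used the 2-fold ratio alone. Log2 ratios used a prior of 1 CPM. Thinning was 1 seeded draw to 1500 UMIs. Partner genes had a UMI in at least 33 cells, and receptor, immunoglobulin, mitochondrial and ribosomal protein genes were left out. Clusters used Leiden clustering (scanpy 1.11.5, igraph 0.11.9) on 2000 variable genes, 30 components and 15 neighbours at resolution 1, without 69 genes (the 5 members, Itgae and receptor segments). No doublet caller was run. The comparison code was run on simulated summed counts drawn from Poisson distributions, which leave out the clustering of UMIs in single cells. That run checked the code and not the calls.

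Named genes are the 5 members, Itgae, the 6 most and 3 least alike genes of each member, the 2 highest and 2 lowest of each list in each split, and the 3 skin-found clones with most Gzma and Gzmb UMIs. Other called genes of a list are named after their values were seen. The members and lists were chosen with earlier results of these data known. The comparison for free RNA planned in the design and 1 marker list are not reported here, and cells without a Ccl5 UMI were used for free RNA instead.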

Additional observations from a re-analysis of the deposited data

How the results depend on the processing

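Of 12 alternatives in the Itgae split and 17 in the clone split, all kept Gzma and Gzmb called higher, and no alternative reversed the direction of a called member. The prior does not enter a call, and some other settings left the cells of the clone split as they were, so these could not change the calls. The settings with equal cell or clone weights called genes by the 2-fold ratio alone, with no interval and no floor. Gzmk kept its call in 11 of 12 and 16 of 17, losing it with Itgae after thinning (log2 ratio 0.84) and among Itgae-detected cells of the clone split (log2 ratio 0.21, 1 UMI in the skin-found cells). Members called lower numbered 1 (Gzmm) in the Itgae split when every cell was weighted equally, against 0. In the clone split they numbered 0, against 1, after thinning, without Trgv2 cells, with contigs of 3 or more UMIs, and among cells with or without Itgae alone. The Prf1 log2 ratio ran from -0.34 to 0.15 with Itgae and from -1.08 to 0.92 by clone, with no call. Shares of cells after thinning were 1.52%, 1.36%, 1.62%, 12.04% and 9.51% for Gzma, Gzmb, Gzmk, Gzmm and Prf1, and shares with 2 or more UMIs were 1.10%, 1.26%, 0.551%, 11.2% and 4.19%. Pairs seen together at least 2 times as often as the product of shares numbered 5 after thinning, against 3. Of the 30 highest partners, 13 were kept with thinned detection and 26 without barcodes with 2 or more TRB sequences. Counts over all genes (higher and lower) with Itgae were 359 and 36, and became 686 and 151 with equal cell weights and 611 and 72 with 2 or more Itgae UMIs. By clone they were 723 and 77, and became 1955 and 2180 with equal cell weights, 1933 and 2240 with equal clone weights, 325 and 45 after thinning, 406 and 27 with contigs of 3 or more UMIs, 165 and 47 among Itgae-detected cells, and 371 and 38 among Itgae-undetected cells. The counts with equal weights rest on this looser rule as well as on the weights, and these were not separated. The cause of the other differences was not tested. No paired analysis was possible because the lanes that share numbers are pooled in the table, and for the same reason no lane could be left out. Median-of-ratios scaling of the list calls, splits within and without Itgae, without Trgv2 cells and without the top cell of each member were chosen after seeing the data.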

Other observations

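Granzymes A and B were higher in cells without a defined clone than in cells with a clone not found in skin. Gzma stood at 54.6 CPM in the 1131 cells without a clone and 13.8 CPM in the 2107 not-found cells, a ratio of 3.97 (3.21 to 4.92), and Gzmb at 24.9 CPM and 8.13 CPM in the same order, a ratio of 3.07 (2.29 to 4.13). Gzmm and Prf1 stood at ratios of 1.002 (0.901 to 1.11) and 1.04 (0.907 to 1.19). By receptor content, Gzma stood at 105 CPM in 302 cells with no kept contig, 104 CPM in 62 cells with TRA only (22 UMIs, 21 in 1 cell), 62.8 CPM in 315 cells with 2 or more TRB sequences (121 UMIs, 61 in 1 cell) and 11.3 CPM in 452 cells with 1 TRB and a TRA number other than 1 or 2. Gzmb stood at 31.3, 14.1, 39.5 and 6.79 CPM in these 4 sets, and 36 of the 76 Gzmb UMIs of the third set were in 1 cell.

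Clone size within the lymph node was compared next. Among cells with a clone not found in skin, the 100 cells of clones with more than 1 lymph node cell held 2 Gzma and 1 Gzmb UMIs, or 7.10 and 3.55 CPM, against 13.96 and 8.27 CPM in 2007 cells of single-cell clones. The ratios were 0.509 (0.0609 to 1.87) for Gzma and 0.429 (0.0107 to 2.46) for Gzmb, so a difference was not detectable at this depth. Gzmm stood at 117 CPM in cells of expanded clones and 109 CPM in cells of single-cell clones, a ratio of 1.08 (0.738 to 1.52).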
